A study of Sus scrofa with 40 samples.

Results

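The longissimus dorsi muscle (LDM) runs along the back and gives the loin of a pig. Its 10 libraries, of 40 in the series, were set against the equally weighted mean of 3 other cuts with 10 libraries each: pork belly (PB), the trapezius (TM), which lies over neck and shoulder, and the hamstring (HM), from the back of the thigh. The members described are genes that separated LDM from each of these cuts in the same direction. Of 11713 genes with enough counts to test, 1548 did so.

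Messenger RNA was sequenced from the muscle of male Chalu black pigs, a pork breed, that shared a sire and were reared under the same conditions. The pigs fasted for 24 h before slaughter, and tissue was taken from the left side, away from fascia, within 45 min of death. The 4 groups therefore differ in the labels by cut alone, and no age, weight or treatment group is given. Libraries are numbered 1 to 10 in each cut, but nothing in the labels says that a number marks a pig or that libraries of a cut came from different pigs, so each p-value measures the spread between libraries, which may in part be technical. A single library, PB1, carries a PB title, whereas longissimus dorsi is entered as its tissue and source. It was kept in PB by its title. On the second principal component of all libraries it stood at 47.26, inside the PB range of 17.01 to 59.27 and above the LDM range of -44.65 to 17.67.

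Skeletal muscle is a mosaic of slow fibres, which are rich in mitochondria and burn fat and lactate, and fast fibres, which rely on glycogen and glycolysis for short, strong contractions. The longissimus of pigs is known as a pale muscle with many fast fibres, whereas muscles that hold posture carry more slow fibres. Each fibre class has its own isoforms of myosin, troponin, tropomyosin and the calcium pump of the sarcoplasmic reticulum. Transcript levels of these isoforms are often read as a sign of fibre make-up, but neither fibres nor proteins were measured here. In tissue as a whole, fewer cells of a type and less RNA per cell cannot be told apart.

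Levels are in CPM, each gene's count scaled to a fixed library size after TMM scaling, a factor that allows for a few abundant genes taking up a library. Where 3 levels follow each other they are the lowest, median and highest of the 10 libraries of a cut. A change is the log2 fold change of LDM over the equally weighted mean of the other cuts, with the standard error (SE) of the fit, and p-values were adjusted by Benjamini and Hochberg's method over all genes tested. Total counts ran from 12305913 to 17735722 per library, and the share of counts from the mitochondrial genome was 4.97% ± 0.827 in LDM against 9.12% ± 1.53 in HM, 7.53% ± 1.80 in TM and 12.5% ± 1.96 in PB (SD, n = 10). The tissue label held against its markers: the 12 skeletal muscle markers found in the table summed to 89779 to 149670 CPM in LDM and 77054 to 190400 in the other cuts. Erythrocyte markers summed to 0.587 to 4.22 CPM in LDM, and skin markers, of which KRT5, KRT1 and KRT15 were at 0, summed to 17.2 to 70.0 CPM in LDM, 12.5 to 33.6 in HM, 12.2 to 48.4 in TM and 12.8 to 46.8 in PB. Of the 3 skin markers tested 1 was higher against the mean, TP63, which muscle can also express, and 0 were set apart. By correlation with the cut means, each library left out of its own, all 10 LDM and 10 PB libraries, PB1 among them, lay nearest to their own cut, as did 8 HM and 7 TM libraries. HM9 and TM7 lay nearest to LDM, HM6 to TM, TM3 to HM and TM6 to PB. Counts are also given without HM6, HM9, TM3 and TM7, the libraries that an earlier analysis of these data had singled out in this way, and TM6 was kept. Those left out were chosen from the same data, and HM9 and TM7 among them lay nearest to LDM. A count that holds without them is therefore no independent support for the separation of LDM.

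Against the mean of the other cuts, 4568 genes passed at an adjusted p under 0.05 in the edgeR quasi-likelihood test, which is 39% of those tested: 2345 were higher in LDM (20%) and 2223 lower (19%). A log2 change of at least 1 was reached by 256 of the higher genes (2.19%) and 539 of the lower (4.6%). The separate comparisons called 32.5% of genes against HM, 24.7% against TM and 41.7% against PB, and all 3 share the LDM libraries. A gene was counted as set apart when it passed in all 3 with 1 sign. These were 1548 genes (13.2%), 975 higher in LDM (8.32%) and 573 lower (4.89%). By size the balance turned: among set-apart genes with a log2 change of at least 1 against the mean, 179 were higher (1.53%) and 293 lower (2.5%). The log2 changes of all tested genes had a median of -0.06. Without PB1, 943 genes were set apart higher and 563 lower, of which 936 and 550 were also set apart with it. Without HM6, HM9, TM3 and TM7 the counts were 905 and 590, with 860 and 515 in common.

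In 11 genes all 10 LDM libraries lay above all 30 other libraries (0.0939% of genes tested), and in a single gene all 10 lay below (0.00854%). The gene below was MYBPC1 (ENSSSCG00000000866, chromosome 5 from 82557607 to 82696126, in coordinates of Sscrofa11.1), the slow isoform of myosin-binding protein C of the thick filament. It stood at 1609, 2387 and 2904 CPM in LDM, against 3642, 6515 and 10210 in HM, 3013, 6885 and 8500 in TM and 5791, 9257 and 10960 in PB. The highest LDM library was thus under the lowest library of every other cut, and the log2 change against the mean was -1.65 ± 0.14 (SE, adjusted p = 2.52e-10). Against HM, TM and PB in turn it was -1.53, -1.51 and -1.92, with a largest adjusted p of 1.17e-07.

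IGFN1 (ENSSSCG00000036948, chromosome 10 from 23628979 to 23660631), a muscle protein with immunoglobulin and fibronectin domains, had the largest rise among the 11 genes above. It stood at 4372, 5998 and 10380 CPM in LDM, against 12.7, 363 and 1034 in HM, 8.85, 576 and 3736 in TM and 42.1, 561 and 3361 in PB. No other library reached the lowest LDM library, and the highest of the others was TM7 at 3736 CPM. The log2 change was 3.26 ± 0.51 (adjusted p = 4.78e-06). Against HM, TM and PB it was 3.95, 2.61 and 3.21, with a largest adjusted p of 0.00745. It was 4.20 and 3.86 under 2 of the alternatives, limma-voom and a block for the library number. 

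SPRY3, a member of the Sprouty family of inhibitors of growth factor signalling, stood at 61.4, 75.7 and 123 CPM in LDM, against 3.12, 18.6 and 50.6 in HM, 11.0, 22.8 and 55.7 in TM and 6.11, 17.3 and 45.4 in PB. Its change was 1.96 ± 0.26 (adjusted p = 4.87e-07). SLC7A5 (ENSSSCG00000032996, chromosome 6 from 1545940 to 1574288), the light chain of the exchanger for large neutral amino acids such as leucine, stood at 39.7, 60.9 and 98.5 CPM in LDM, against 6.98, 12.7 and 37.3 in HM, 2.78, 12.2 and 31.1 in TM and 7.199, 14.5 and 36.8 in PB, a change of 2.01 ± 0.24 (adjusted p = 9.69e-08). No other library overlapped with LDM in either gene.

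The other 8 genes above were smaller in change. PGK1 of glycolysis was higher by 1.53 ± 0.19 on the log2 scale, SPR, which makes the cofactor tetrahydrobiopterin, by 0.84 ± 0.09, and AP2B1, an adaptor subunit of clathrin coats, by 0.81 ± 0.09. The ribosomal stalk protein RPLP1 was higher by 0.75 ± 0.08, the histone demethylase KDM2A by 0.72 ± 0.08, CDIP1 by 0.67 ± 0.09, the diphosphoinositol phosphohydrolase NUDT3 by 0.61 ± 0.07 and the ESCRT-I subunit VPS28 by 0.57 ± 0.08 (adjusted p of all 8 at most 6.28e-07). CDIP1 overlaps HMOX2 and NMRAL1, and NUDT3 overlaps HMGA1, so their values are uncertain where the counting could share reads. These counts move with the scaling. With upper-quartile scaling 8 genes lay above, 7 of them among those named, and VPS28, CDIP1, AP2B1 and NUDT3 overlapped with other cuts. With mitochondrially encoded genes taken out 8 lay above, all among those named, and VPS28, CDIP1 and NUDT3 overlapped. DESeq2's size factors gave 13. The counts also move with single libraries: without HM6, HM9, TM3 and TM7, 37 genes lay above and 20 below, 10 and 1 of them among those named. Leaving out single libraries gave 17 genes above without LDM1 or LDM4, 23 without LDM2, 21 without LDM5 or HM9, 18 without TM1, 25 without TM7 and 19 without PB10. It gave 2 below without LDM1, LDM4, HM9, TM1 or TM7 and 3 without LDM9.

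**Figure D1:**
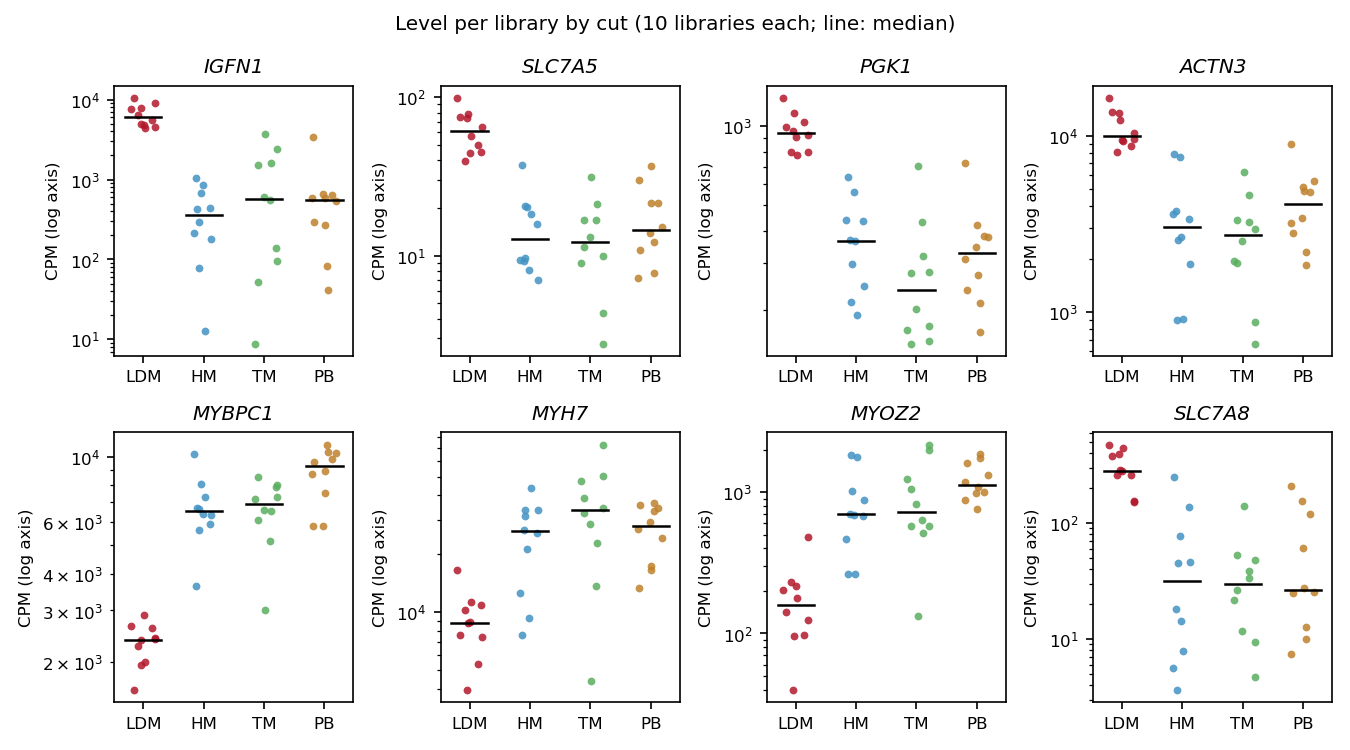
Level of 8 genes in each library in CPM on a log axis, by cut (10 libraries each; the line is the median). The LDM points of IGFN1, SLC7A5 and PGK1 lie above all others and those of MYBPC1 below all others, while ACTN3, MYH7, MYOZ2 and SLC7A8 overlap with a few libraries.

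Transcripts of slow fibre proteins were lower in LDM without exception among those tested. All 13 tested members of the slow fibre list were set apart lower (4.89% of all genes), with a median log2 change of -1.73 against -0.06 over all genes. The count was also 13 without PB1 and without HM6, HM9, TM3 and TM7. MYH7 (ENSSSCG00000002029, chromosome 7 from 75650445 to 75709232), the slow myosin heavy chain that also serves the heart, stood at 3948, 8808 and 16390 CPM in LDM, against 7609, 26050 and 43580 in HM, 4399, 33550 and 73050 in TM and 13360, 27930 and 36390 in PB. Its change was -1.64 ± 0.29 (adjusted p = 2.71e-05), a 3.12-fold lower level, and 6 of the 30 other libraries lay under the highest LDM library. MYH7 shares sequence with the other cardiac myosin, so reads could be split between them. MYOZ2 (ENSSSCG00000032838, chromosome 8 from 104574430 to 104609328), a Z-disc protein of slow fibres that binds calcineurin, stood at 39.7, 160.2 and 483 CPM in LDM, against 262, 699 and 1814 in HM, 133, 727 and 2161 in TM and 764, 1126 and 1873 in PB, a change of -2.48 ± 0.36. MYL2, the regulatory light chain of slow myosin, changed by -2.06 ± 0.29 from medians of 1316 CPM in LDM, against 5675 in HM, 4567 in TM and 5337 in PB. TPM3, the slow tropomyosin, changed by -1.70 ± 0.24. The other 9 ran from -2.47 for the stretch-sensing protein CSRP3 to -1.37 for ANKRD2. Between them lay the slow troponins TNNC1, TNNT1 and TNNI1 (-1.76, -1.71 and -1.63), the slow calcium pump ATP2A2 (-1.75) and the calcium-binding CASQ2 (-1.73). TM7 was the exception in its cut, with MYL2 at 1048, TPM3 at 707.7 and MYOZ2 at 133 CPM, inside the LDM range.

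Transcripts of fast fibre proteins were higher: of 12 tested, 11 were set apart higher (8.32% of all genes) and PVALB, a calcium buffer, did not pass at a log2 change of -0.08. Their median log2 change was 1.02, and the count was also 11 without PB1 and without HM6, HM9, TM3 and TM7. ACTN3 (ENSSSCG00000038323, chromosome 2 from 5858845 to 5874124), the alpha-actinin of fast Z-discs, stood at 8039, 9963 and 16250 CPM in LDM, against 901, 3016 and 7844 in HM, 663, 2742 and 6177 in TM and 1837, 4081 and 8970 in PB, and 8 of 10 LDM libraries exceeded all others. Its change was 1.67 ± 0.26 (adjusted p = 3.92e-06), or 1.66, 1.97 and 1.38 against HM, TM and PB (largest adjusted p = 0.00162). The tropomyosin TPM1 stood at 11670 CPM in LDM, against 3879 in HM, 3328 in TM and 4052 in PB by medians and changed by 1.52 ± 0.20. The fast myosin-binding protein MYBPC2 changed by 1.31 ± 0.19, the fast calcium pump ATP2A1 by 1.10 ± 0.20, the calcium store protein CASQ1 by 1.02 ± 0.15 and the fast troponin C TNNC2 by 1.002 ± 0.20. The fast myosin heavy chains could not be followed one by one, because a single gene model spans MYH4, MYH1 and MYH2. It is outside the 12 genes counted above and outside the fast fibre sums. This model stood at 23560, 30290 and 44120 CPM in LDM, against 7663, 17980 and 32360 in HM, 6261, 16280 and 24190 in TM and 15750, 28520 and 55220 in PB. It passed against the mean at 0.59 ± 0.18 (adjusted p = 0.0103) but was not set apart, with 0.70, 0.99 and 0.08 against HM, TM and PB (adjusted p = 0.819 against PB).

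**Figure D2:**
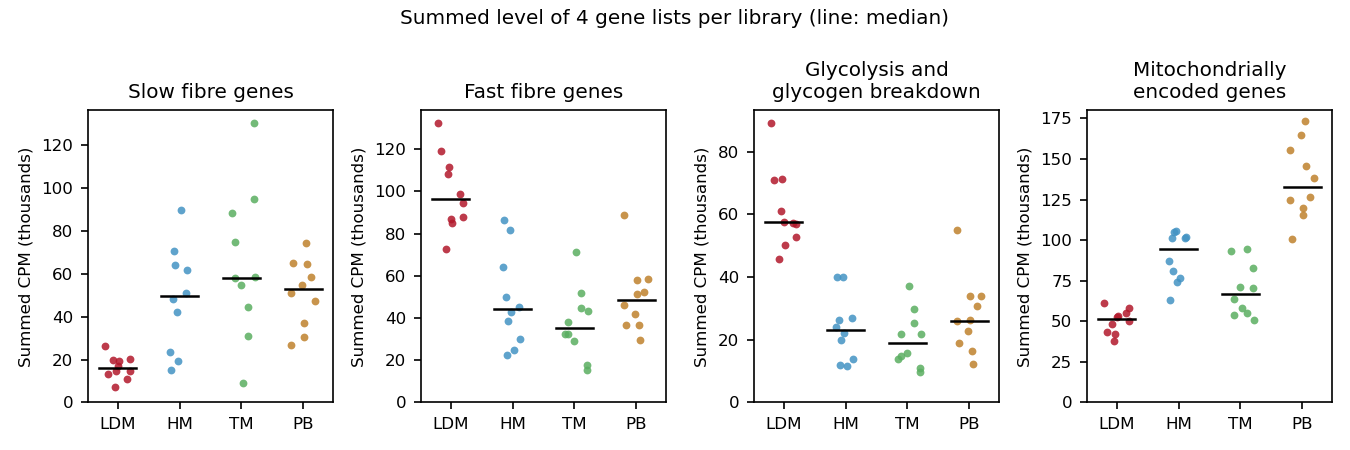
Summed CPM (axis divided by 1000) of 4 gene lists in each library by cut (line: median). The fast fibre list leaves out the gene model that spans MYH4, MYH1 and MYH2. LDM sums are lowest for slow fibre and mitochondrially encoded genes and highest for fast fibre genes and for glycolysis by median, and some libraries of other cuts reach into the LDM range.

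Transcripts of the listed enzymes of glycogen breakdown and glycolysis were higher in LDM. Of 14 tested, 14 were higher against the mean (20% of all genes) and 13 were set apart higher (8.32%), with a median log2 change of 1.44. Without PB1, or without HM6, HM9, TM3 and TM7, 13 were set apart as well. Glycogen phosphorylase PYGM, which opens the pathway, stood at 11940, 16820 and 25340 CPM in LDM, against 4363, 7515 and 13950 in HM, 2986, 6314 and 9667 in TM and 5019, 9640 and 15720 in PB, a change of 1.19 ± 0.17 (adjusted p = 1.14e-06). GPI, the isomerase of glucose phosphate, stood at 1088, 1525 and 2185 CPM in LDM, against 278, 599.7 and 1170 in HM, 272, 481 and 918 in TM and 338, 594 and 1251 in PB, a change of 1.45 ± 0.17. PGK1 (ENSSSCG00000012440, chromosome X from 62187431 to 62212244), the first enzyme of the pathway that yields ATP, stood at 774, 942 and 1277 CPM in LDM, against 191, 366 and 639 in HM, 148, 238 and 706 in TM and 164, 328 and 724 in PB. For these 3 enzymes the median LDM library was above the highest library of each other cut. TPI1 changed by 1.36 ± 0.17 and ENO3, the muscle enolase, which overlaps PFN1, by 1.39 ± 0.20. The largest change was that of lactate dehydrogenase LDHA at 1.64, followed by phosphoglucomutase PGM1 at 1.59 and pyruvate kinase PKM at 1.58, while the rate-setting phosphofructokinase PFKM stood at 1.49. FBP2, which runs in the direction of glucose synthesis, had a change of 1.45. Not every enzyme of the pathway rose. Hexokinase HK2, at -2.59, and liver-type phosphofructokinase PFKL are outside the list and were lower, as given under the other observations. Summed over the list, LDM libraries held 45673 to 89203 CPM, against 11661 to 40110 in HM, 9568 to 36978 in TM and 12380 to 55106 in PB. The PB range reached into that of LDM, and the HM and TM ranges did not.

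Mitochondrially encoded transcripts were lower: 12 of 12 tested against the mean (19% of all genes) and 11 set apart (4.89% of all genes). Without HM6, HM9, TM3 and TM7, 10 were set apart. The median log2 change was -1.29. By cut the medians were -1.10 against HM, -0.65 against TM and -2.21 against PB. ND2, a subunit of complex I, stood at 404, 775 and 1134 CPM in LDM, against 1531, 2155 and 2701 in HM, 852, 1423 and 2318 in TM and 3858, 6343 and 8493 in PB, a change of -1.75 ± 0.17 (adjusted p = 2.18e-09). ATP6 of ATP synthase changed by -1.36 ± 0.14 and ND3 by -1.22 ± 0.14, and ND6 had the largest change at -2.13. COX1, a core subunit of cytochrome oxidase, stood at 15140, 22420 and 30070 CPM in LDM, against 23320, 38090 and 46470 in HM, 21070, 30290 and 41090 in TM and 25260, 37550 and 51940 in PB, a change of -0.61 ± 0.12, and its call against TM was lost without TM9 (adjusted p = 0.0519). ND1 passed against the mean but not against each cut. ATP6 overlaps COX3 in the annotation.

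Nuclear-encoded partners of these genes had smaller changes. Of 36 nuclear-encoded subunits of oxidative phosphorylation 11 were lower against the mean, 25 did not pass and 6 were set apart lower (5 without PB1; 4.89% of all genes were), with a median log2 change of -0.20. NDUFA4, a subunit of cytochrome oxidase, stood at 89.6, 134 and 159 CPM in LDM, against 144, 200.2 and 223 in HM, 145, 195 and 268 in TM and 154, 201 and 261 in PB, a change of -0.59 ± 0.09, and 8 LDM libraries lay below all others. UQCRC2 and UQCRFS1 of complex III changed by -0.46 ± 0.11 and -0.44 ± 0.11. Of 17 enzymes of the citric acid cycle and its entry 3 were set apart lower and 1 higher, where 4.89% and 8.32% of all genes were. Malate dehydrogenase MDH1 of the cytosol changed by -0.76 ± 0.15 and PDHA1, the catalytic subunit of pyruvate dehydrogenase, by -0.71 ± 0.12 from medians of 305 CPM in LDM, against 485 in HM, 487 in TM and 533 in PB. The mitochondrial MDH2 changed by -0.42 ± 0.11, and its call against PB was lost without any 1 of LDM2, LDM3, LDM4, PB3, PB4, PB5, PB6 or PB7 (adjusted p up to 0.0931). IDH3G was higher by 0.31, and it was no longer set apart without HM6, HM9, TM3 and TM7, with DESeq2's size factors or test, with limma-voom or with upper-quartile scaling.

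Transcripts for the uptake and burning of fatty acids were mostly lower. Of 24 tested, 16 were lower against the mean (19% of all genes) and 2 were higher (20%). Set apart were 13 lower (4.89% of all genes) and 1 higher (8.32%). The 24 had a median log2 change of -0.67. CPT2, the inner-membrane carnitine palmitoyltransferase, stood at 12.5, 25.8 and 36.7 CPM in LDM, against 25.0, 60.8 and 96.2 in HM, 31.7, 70.3 and 136 in TM and 29.6, 68.1 and 92.7 in PB, a change of -1.43 ± 0.21 (adjusted p = 2.52e-06). DECR1, which prepares unsaturated fatty acids for oxidation, changed by -1.21 ± 0.15, and ACAA2, the last enzyme of the beta-oxidation spiral, by -1.19 ± 0.17. Lipoprotein lipase LPL, at -1.45, had the largest change. Along the pathway the carnitine shuttle enzyme CPT1B changed by -1.01, the dehydrogenases ACADVL, ACADL and ACADM at -1.004, -0.97 and -1.09, and the trifunctional protein subunits HADHB and HADHA at -1.04 and -0.53. UCP3, a carrier of the inner mitochondrial membrane, was set apart higher at 1.33, and SLC25A20, which carries acylcarnitines into mitochondria, passed against the mean alone at 0.37. The fatty acid binding protein FABP3, at a log2 change of -0.36, and PDK4, at -0.58, did not pass.

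Among genes of lipid synthesis 3 of 17 were set apart lower and 1 higher, where 13.2% of all genes were set apart. MLXIPL (ENSSSCG00000007710, chromosome 3 from 10894270 to 10934047), the glucose-sensing transcription factor ChREBP, stood at 1.153, 3.37 and 6.13 CPM in LDM, against 4.88, 19.5 and 31.1 in HM, 4.27, 18.5 and 69.1 in TM and 3.71, 22.1 and 48.5 in PB, a change of -2.68 ± 0.43 (adjusted p = 6.59e-06). GPAM, which starts triglyceride assembly, changed by -1.85 ± 0.29 from medians of 13.3 CPM in LDM, against 47.0 in HM, 54.1 in TM and 60.2 in PB, and ACACA, acetyl-CoA carboxylase, by -0.98 ± 0.17. ME1, which supplies NADPH, was higher by 0.68 but no longer set apart with mitochondrially encoded genes taken out or no filter. FASN and SCD, at log2 changes of 0.15 and -0.46, did not pass. The droplet proteins PLIN5, PLIN2 and PLIN3, chosen after their values were seen, were set apart lower. PLIN5 stood at 4.89, 8.86 and 13.5 CPM in LDM, against 7.997, 32.8 and 63.7 in HM, 8.73, 60.5 and 107 in TM and 14.03, 42.0 and 64.0 in PB, a change of -2.32 ± 0.28. PLIN2 changed by -1.56 ± 0.33 from medians of 125 CPM in LDM, against 432 in HM, 277 in TM and 298 in PB. PLIN3 changed by -0.999 ± 0.24, and its call against PB was lost without any 1 of 10 libraries, most of all PB3 (adjusted p = 0.0817). 

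Of 11 adipocyte markers 2 were lower and 2 higher against the mean, near the 19% and 20% of all genes. AQP7, a glycerol channel, was set apart lower at -1.77 ± 0.31 and GPD1, which muscle also uses to pass electrons to mitochondria, higher at 1.28 ± 0.18. ADIPOQ, the hormone of fat cells, stood at 3.10, 19.6 and 39.8 CPM in LDM, against 0.616, 13.9 and 62.5 in HM, 9.07, 24.6 and 101 in TM and 1.64, 15.8 and 57.0 in PB and did not pass (adjusted p = 0.773), and neither did the fat cell droplet proteins PLIN1 and CIDEC, at log2 changes of -0.08 and -0.38. The adipocyte list summed to 1354 to 2819 CPM in LDM, 864 to 1668 in HM, 1217 to 2063 in TM and 919 to 2077 in PB. GPD1 enters this sum, whereas the tested members had a median log2 change of -0.16. The part of fat cells in the differences above was not tested.

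The 12 set-apart genes with the highest log2 changes, at 1 CPM or more in LDM ranged from IGFN1 to genes of a few CPM. After IGFN1 came USH1C, the scaffold protein harmonin, at 2.12, 3.49 and 6.07 CPM in LDM, against 0, 0.497 and 1.83 in HM, 0, 0.117 and 2.45 in TM and 0, 0.201 and 1.85 in PB, a change of 3.02 ± 0.44 (adjusted p = 1.58e-06), or 3.83 with limma-voom. GTSE1, a microtubule-binding protein of dividing cells, stood at 0.850, 2.54 and 11.3 CPM in LDM, against 0, 0.253 and 0.916 in HM, 0.118, 0.599 and 1.96 in TM and 0, 0.332 and 1.62 in PB, a change of 2.83 ± 0.38. USH1C was above all other libraries in 8 of 10 LDM libraries and GTSE1 in 5, where the lowest LDM libraries fell among the others. RASGEF1A, an exchange factor for Ras, changed by 2.55 ± 0.32 and was lowest in PB, with medians of 9.06 CPM in LDM, against 2.72 in HM, 1.43 in TM and 0.770 in PB. SLC7A8, a further exchanger of neutral amino acids, stood at 151, 284 and 474 CPM in LDM, against 3.62, 31.5 and 249 in HM, 4.74, 29.9 and 139.9 in TM and 7.41, 26.3 and 208 in PB, a change of 2.53 ± 0.46, or 3.19 with limma-voom. Of the 30 other libraries 3 lay above the lowest LDM library.

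The cation channel TRPV3 changed by 2.45 ± 0.45, the exchange factor VAV3 by 2.36 ± 0.32 and the homeobox factor EN2 by 2.28 ± 0.43. VAV3 stood at 3.54 CPM in the median LDM library and at 22.3 in the highest, so LDM libraries differed among themselves. The call of TRPV3 against TM was lost without any 1 of LDM3, LDM6, LDM8, LDM10, TM1, TM2, TM4, TM5, TM6, TM8 or TM9 (adjusted p up to 0.1215) and with upper-quartile scaling or no filter (up to 0.0662). PERP, a membrane protein of cell junctions, changed by 2.27 ± 0.38 and NMNAT2, which makes NAD, by 2.26 ± 0.24 (adjusted p = 9.61e-09). TRPV3 overlaps ASPA and NMNAT2 overlaps a neighbouring gene, which makes their counts uncertain. HOXC8 and HOXD1, also among the 12, are described with the positional genes.

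The 12 set-apart genes with the lowest log2 changes included several that were near absent in LDM. SBK2 (ENSSSCG00000033532, chromosome 6 from 59672295 to 59677670), a serine/threonine kinase, stood at 0.182, 0.376 and 0.640 CPM in LDM, against 0.549, 8.13 and 33.9 in HM, 0.0981, 18.8 and 102 in TM and 2.44, 47.0 and 135 in PB, with 58 counts over the 10 LDM libraries. Its change was -6.04 ± 0.88 (adjusted p = 1.69e-06), or -4.82, -6.23 and -7.07 against HM, TM and PB, and it was -5.21 with limma-voom, where the call against HM was lost (adjusted p = 0.052). TM7, at 0.0981 CPM, was the only other library under the lowest LDM library. METTL21C, a methyltransferase of lysines, stood at 0.850, 2.798 and 5.18 CPM in LDM, against 2.45, 43.7 and 164 in HM, 3.10, 26.9 and 439 in TM and 1.83, 34.0 and 312 in PB, a change of -4.76 ± 0.88 (-3.71 with limma-voom). RFLNA, which binds filamin, stood at 0.319, 1.503 and 2.94 CPM in LDM, against 2.26, 15.1 and 38.3 in HM, 0.589, 41.3 and 233 in TM and 17.7, 27.6 and 83.7 in PB, a change of -4.60 ± 0.65 (adjusted p = 9.55e-07).

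PRG4, the joint and fascia lubricant lubricin, changed by -4.41 ± 0.96 and DDN, an actin-associated protein, by -4.37 ± 0.91 (-4.99 without LDM10). Both lost their call against TM with limma-voom (adjusted p = 0.0836 and 0.0551). RSPO3, a secreted enhancer of Wnt signalling, stood at 0.522, 1.18 and 2.62 CPM in LDM, against 3.97, 11.0 and 31.5 in HM, 2.16, 14.1 and 40.5 in TM and 9.72, 21.6 and 85.5 in PB, with 9 LDM libraries below all others and a change of -3.92 ± 0.53 (adjusted p = 5.07e-07). NRSN1, a vesicle protein, changed by -3.77 ± 0.73 and NPR3, the clearance receptor for natriuretic peptides, by -3.74 ± 0.68 (-2.92 with limma-voom, with the call against HM lost at adjusted p = 0.154). The proton-gated channel ASIC1 stood at 0.192, 0.5003 and 1.64 CPM in LDM, against 0.977, 7.84 and 26.9 in HM, 1.72, 6.73 and 19.5 in TM and 1.94, 5.39 and 16.1 in PB, a change of -3.70 ± 0.49. A single library of the other 30 lay under the highest LDM library.

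RAB30, a GTPase of the Golgi, changed by -3.18 ± 0.51 and SLC16A7, a carrier of lactate and pyruvate, by -3.09 ± 0.47. ACTC1, the actin of the heart, changed by -3.22 ± 0.87, but its libraries overlapped widely at 0.789, 9.03 and 45.7 CPM in LDM, against 11.8, 62.3 and 1044 in HM, 2.94, 16.8 and 297 in TM and 4.4, 41.1 and 517 in PB. The call of ACTC1 against TM was lost without any 1 of 23 libraries, most of all TM8 (adjusted p = 0.1936), and under 4 of the alternatives, and the change was -2.58 with limma-voom and -2.51 with the block. ACTC1 is near-identical to ACTA1 in sequence, and PRG4 overlaps TPR, so their counts are uncertain.

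**Figure D3:**
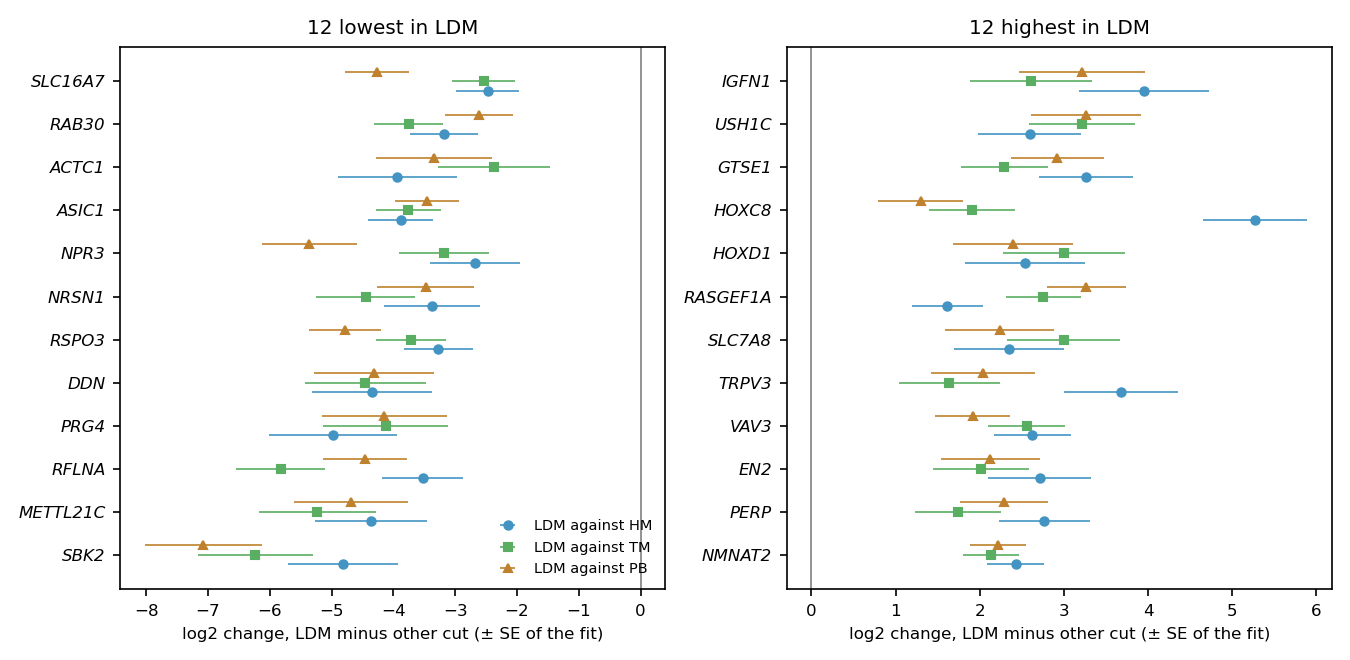
Log2 change of LDM against HM (circles), TM (squares) and PB (triangles), with the standard error of the fit, for the 12 set-apart genes with the lowest and the 12 with the highest change against the mean. All points lie on 1 side of 0 in each panel, and the points of HOXC8 run from 1.30 against PB to 5.27 against HM.

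HOX genes are transcription factors whose order along a cluster matches the body level at which they act, and adult tissues keep part of that pattern. In groups 6 to 9, which mark the trunk, 5 of 9 were higher against the mean, where 20% of all genes were. Of these groups 2 genes were set apart higher (8.32% of all genes), and the median log2 change was 1.40. HOXC8 (ENSSSCG00000038644, chromosome 5 from 19221760 to 19225846) stood at 20.4, 29.0 and 37.0 CPM in LDM, against 0.519, 0.708 and 1.23 in HM, 0.0600, 6.34 and 33.2 in TM and 0.512, 11.4 and 24.8 in PB. Its change was 2.82 ± 0.38 (adjusted p = 4.34e-07), but 5.27, 1.91 and 1.30 against HM, TM and PB. HOXC8 was thus near absent from HM. Of the TM and PB libraries, only TM7 at 33.2 CPM, PB1 at 23.9 and PB7 at 24.8 reached the LDM range. The call against PB (adjusted p = 0.0353) was lost without any 1 of PB10, PB9, PB5, PB3, PB2, LDM9, LDM8, LDM7, LDM5, LDM1 or HM4 (up to 0.0633) and with no filter. The change against the mean was 3.43 with limma-voom and 2.10 with the other 30 libraries as 1 group.

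HOXC9 (ENSSSCG00000034474, chromosome 5 from 19212905 to 19215984), its neighbour, stood at 8.70, 20.1 and 25.6 CPM in LDM, against 2.22, 3.69 and 7.33 in HM, 0, 3.42 and 15.8 in TM and 0.439, 8.13 and 10.9 in PB, a change of 2.004 ± 0.37 with 2.20, 2.22 and 1.59 by cut. HOXC6, HOXD9 and HOXD8 passed against the mean alone, at 1.77, 1.47 and 1.40. In groups 1 to 5, 1 of 11 genes tested was set apart higher, which is near the 8.32% of all genes. This was HOXD1 (ENSSSCG00000015986, chromosome 15 from 81987752 to 81990807), at 6.46, 14.1 and 21.4 CPM in LDM, against 0, 1.62 and 9.95 in HM, 0, 0.430 and 9.83 in TM and 0.0699, 2.49 and 9.03 in PB and a change of 2.64 ± 0.503 (3.86 with limma-voom). Lower against the mean were 3 of the 11 (19% of all genes), HOXC4, HOXA3 and HOXB2, at -1.12, -0.84 and -0.60. HOXC10, a gene of the hind body, stood at 5.20, 13.7 and 100 CPM in LDM, against 33.6, 57.8 and 78.9 in HM, 0, 0.0296 and 2.31 in TM and 0, 0.707 and 3.26 in PB. Against the mean the change was 3.28 ± 0.44 (adjusted p = 5.3e-07), but against HM, TM and PB it was -0.93, 6.27 and 4.49, with HM above LDM in the median and no call (adjusted p = 0.2). With the other 30 libraries as 1 group it was 0.61 (adjusted p = 0.6225). Within LDM, LDM3 and LDM4 stood at 100.02 and 89.95 CPM and the rest at 23.9 or less.

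Of the other positional factors, 8 of 18 were lower against the mean (19% of all genes) and 3 were higher (20%). Set apart lower were 5 (4.89% of all genes). PRRX1 (ENSSSCG00000031503, chromosome 4 from 80427685 to 80501646), a homeobox factor of connective tissue cells, stood at 17.9, 38.4 and 78.5 CPM in LDM, against 59.0, 126 and 245 in HM, 51.9, 128 and 171 in TM and 86.8, 137 and 349.7 in PB, a change of -1.71 ± 0.27 (adjusted p = 5.28e-06). TBX3, a factor of limb development, changed by -0.86 ± 0.17, and its call against HM was lost without HM2 (adjusted p = 0.0542). MEOX1 and MEOX2, factors of the embryonic somite, changed by -1.37 and -0.68. SIM1 and ZIC1 were higher against the mean alone, at 2.02 and 1.27.

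**Figure D4:**
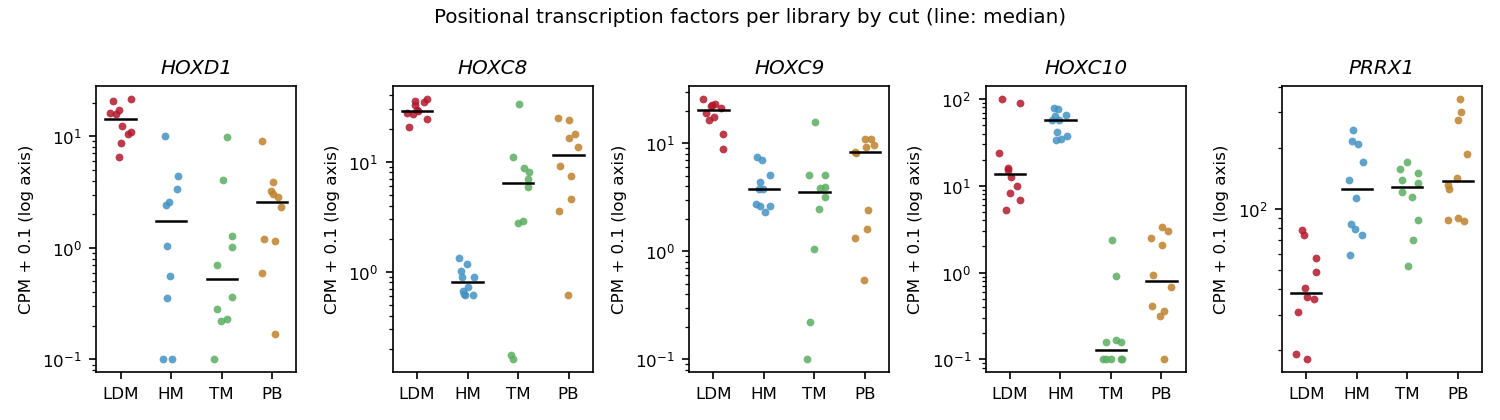
CPM plus 0.1, on a log axis, of 4 HOX genes and PRRX1 in each library by cut (line: median). HOXD1 and HOXC9 are highest in LDM, HOXC8 in LDM overlaps with a few libraries of TM and PB, HOXC10 is high in both LDM and HM, and PRRX1 is lowest in LDM.

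Among 16 transcription factors tied to fibre type, 2 were set apart higher and 1 lower, where 13.2% of all genes were set apart. MAF stood at 78.2, 120.3 and 222 CPM in LDM, against 15.7, 30.2 and 68.1 in HM, 21.4, 40.8 and 87.7 in TM and 29.6, 64.3 and 129 in PB, a change of 1.43 ± 0.22, and MAFA at 1.53 ± 0.27 from medians of 16.0 CPM in LDM, against 5.13 in HM, 6.54 in TM and 6.998 in PB. Large MAF factors are known to drive the fastest myosin gene. PROX1, which favours slow fibres, changed by -1.32 ± 0.29 from medians of 1.87 CPM in LDM, against 3.17 in HM, 3.94 in TM and 5.08 in PB, and its call against HM was lost without HM2 or LDM6 (adjusted p up to 0.0563) and with limma-voom (0.0622). SOX6, EYA4 and MEF2A passed against the mean alone, at 0.86, 0.95 and 0.82. Of 9 regulators of oxidative metabolism 1 was set apart lower, where 4.89% of all genes were. This was the nuclear receptor ESRRG, at 0.971, 7.54 and 16.4 CPM in LDM, against 7.80, 23.1 and 53.5 in HM, 7.15, 28.2 and 78.0 in TM and 4.90, 19.3 and 121 in PB and a change of -2.15 ± 0.48 (adjusted p = 0.000472). PPARGC1A, the coactivator of mitochondrial growth, overlapped across cuts at 12.3, 93.5 and 258 CPM in LDM, against 21.7, 108 and 406 in HM, 29.4, 73.3 and 708 in TM and 25.9, 42.3 and 518 in PB and did not pass (-0.43 ± 0.54, adjusted p = 0.551). Of 18 clock genes 1 was set apart lower and 1 higher, the repressor CRY2, at a log2 change of 0.84 ± 0.17, which is near the 13.2% of all genes set apart.

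Genes of protein synthesis and turnover had small log2 changes, most of them higher. Of 29 proteasome subunits 23 were higher against the mean (20% of all genes) and 17 were set apart higher (8.32%), with a median of 0.43. PSMC3, an ATPase of the cap, stood at 48.3, 63.8 and 93.3 CPM in LDM, against 30.1, 39.0 and 46.4 in HM, 28.4, 36.5 and 52.6 in TM and 31.1, 41.1 and 51.0 in PB, a change of 0.76 ± 0.09 (adjusted p = 8.81e-08), PSMC5 changed by 0.69 ± 0.08 and PSMD2 by 0.74 ± 0.09. Of 47 ribosomal proteins 32 were higher (20% of all genes) and 12 set apart higher (8.32%), with a median of 0.29. RPLP1 stood at 514, 626 and 832 CPM in LDM, against 290.5, 371 and 498 in HM, 334, 416 and 478 in TM and 304, 389.7 and 441 in PB and RPS16 changed by 0.75 ± 0.08, whereas RPLP2 was lower at -0.36. Ribosomal protein genes have many near-identical copies, RPL32 (at 0.47 ± 0.07) overlaps CAND2 and PSMC5 overlaps FTSJ3, so these values are uncertain in size. Among 18 calpains, cathepsins and ubiquitin ligases, proteins of muscle breakdown and of meat ageing, the muscle calpain CAPN3 was set apart at 0.60 ± 0.12 from medians of 920.1 CPM in LDM, against 596 in HM, 659 in TM and 632 in PB and CAPN1 at 0.502 ± 0.11, 2 of 18 where 8.32% of all genes were set apart higher. The call of CAPN1 against HM was lost without any 1 of HM2, HM3, HM4, HM7, LDM6, LDM8 or LDM10 (adjusted p up to 0.0688) and with upper-quartile scaling or no filter (up to 0.0534). The ubiquitin ligases TRIM63 and FBXO32, at log2 changes of 0.29 and 0.16, did not pass.

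Of 13 endothelial markers 10 were lower against the mean, where 19% of all genes were, and 3 were set apart lower, against 4.89% of all genes. The median log2 change was -0.63. ERG, an endothelial transcription factor, stood at 7.198, 11.9 and 16.9 CPM in LDM, against 14.8, 27.0 and 44.3 in HM, 9.22, 21.4 and 29.2 in TM and 14.5, 19.6 and 36.6 in PB, a change of -0.93 ± 0.16 (adjusted p = 1.17e-05), EMCN changed by -0.78 ± 0.14 and ROBO4 by -0.91 ± 0.22, the last losing its call against PB without PB3, PB5 or PB8 (adjusted p up to 0.0929), with limma-voom and with the block (up to 0.3556). The 13 summed to 393 to 593 CPM in LDM, 468 to 1211 in HM, 396 to 1036 in TM and 389 to 1008 in PB. Of 10 smooth muscle and pericyte markers 3 were lower against the mean (19% of all genes). Of these markers 1, RGS5, was set apart lower (4.89% of all genes), at -1.02 ± 0.17. The list had a median log2 change of -1.04 against HM, -0.47 against TM and 0.21 against PB. The part of endothelial cells in the other differences was not tested.

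Of 24 matrix and fibroblast markers 12 were lower against the mean (19% of all genes) and 3 were set apart lower (4.89% of all genes), with a median log2 change of -0.61. The matrix protein tenascin, TNC, stood at 3.72, 17.6 and 47.3 CPM in LDM, against 17.6, 152 and 439.9 in HM, 9.66, 68.9 and 283 in TM and 19.0, 48.3 and 275 in PB, a change of -2.37 ± 0.57, with the call against TM lost without TM3 (adjusted p = 0.0734). BGN changed by -1.03 ± 0.27, lost against PB without PB1 (adjusted p = 0.057), and overlaps SLC6A8. FN1 changed by -0.84 ± 0.25 and lost a call without any 1 of HM4, HM6, LDM7, PB2, LDM4, LDM8, TM5, TM8 or TM10 (adjusted p up to 0.077). The collagens COL1A1 and COL3A1, at log2 changes of -0.65 and -0.502, did not pass. The 26 markers found in the table summed to 1332 to 2819.5 CPM in LDM, 1909 to 6637 in HM, 2549 to 4787 in TM and 1529 to 7803 in PB. The part of matrix cells in the other differences was not tested.

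MBP, a myelin protein, was set apart higher at 68.1, 93.4 and 159 CPM in LDM, against 20.3, 26.9 and 79.6 in HM, 14.1, 35.9 and 81.3 in TM and 14.5, 36.8 and 78.9 in PB and a change of 1.40 ± 0.23, while 7 of 8 Schwann cell markers did not pass, among them SOX10 at a log2 change of -0.23. With 1 of 8 set apart higher, the list was near the 8.32% of all genes. Its median log2 change was -0.05 against the mean, and -0.37, -0.65 and 0.93 against HM, TM and PB. Among 9 genes of the neuromuscular junction 2 were set apart lower, where 4.89% of all genes were. These were the acetylcholine receptor subunit CHRNA1 and COLQ, the anchor of acetylcholinesterase, at -1.49 ± 0.31 and -1.33 ± 0.34. COLQ rested on 43 counts in LDM, and its call against HM was lost without any 1 of HM3, HM6, HM7, HM10, LDM3, LDM4, LDM5, LDM6, LDM7 or LDM9 (adjusted p up to 0.1258) and under 3 of the alternatives (up to 0.0999). Of 12 leukocyte markers 2 were lower against the mean (19% of all genes) and 0 set apart. Of 11 satellite cell and myogenic genes 4 were higher (20% of all genes) and 0 set apart. MSTN, which restrains muscle growth, stood at 0.485, 1.32 and 7.66 CPM in LDM, against 0.460, 1.28 and 2.75 in HM, 0.178, 0.562 and 0.811 in TM and 1.16, 2.96 and 6.61 in PB. It passed against the mean at 0.79 ± 0.31 (adjusted p = 0.0387), with 0.65, 2.12 and -0.40 by cut, and lost that without HM4, HM6, HM7, LDM1, LDM2, LDM5, LDM8 or TM5 (adjusted p up to 0.3693) and under 4 of the alternatives (up to 0.3932).

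Of 16 heat shock genes the small chaperone HSPB6 was set apart, lower at -1.65 ± 0.27 from medians of 1000 CPM in LDM, against 2473 in HM, 3125 in TM and 2816 in PB, and of 20 immediate early genes KLF6, at -1.39 ± 0.39. KLF6 lost its call without HM5 or TM3 (adjusted p up to 0.1457) and without HM6, HM9, TM3 and TM7 together (0.0773). In both lists 1 gene set apart is at or near the share of all genes that was set apart lower, 4.89%. Among the most abundant transcripts, skeletal actin ACTA1 stood at 52060 CPM in LDM, against 62580 in HM, 79440 in TM and 72420 in PB by medians and changed by -0.38 ± 0.13 (adjusted p = 0.0548 without LDM7), creatine kinase CKM at 0.24 ± 0.13 did not pass (adjusted p = 0.131, and 0.0428 without HM8) and filamin FLNC at 0.17 ± 0.28 did not pass. Of 12 general muscle markers 3 were set apart lower, where 4.89% of all genes were. They were MYBPC1, the actinin ACTN2 at -0.91 ± 0.18 and the titin cap TCAP at -0.68 ± 0.15.

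**Figure D5:**
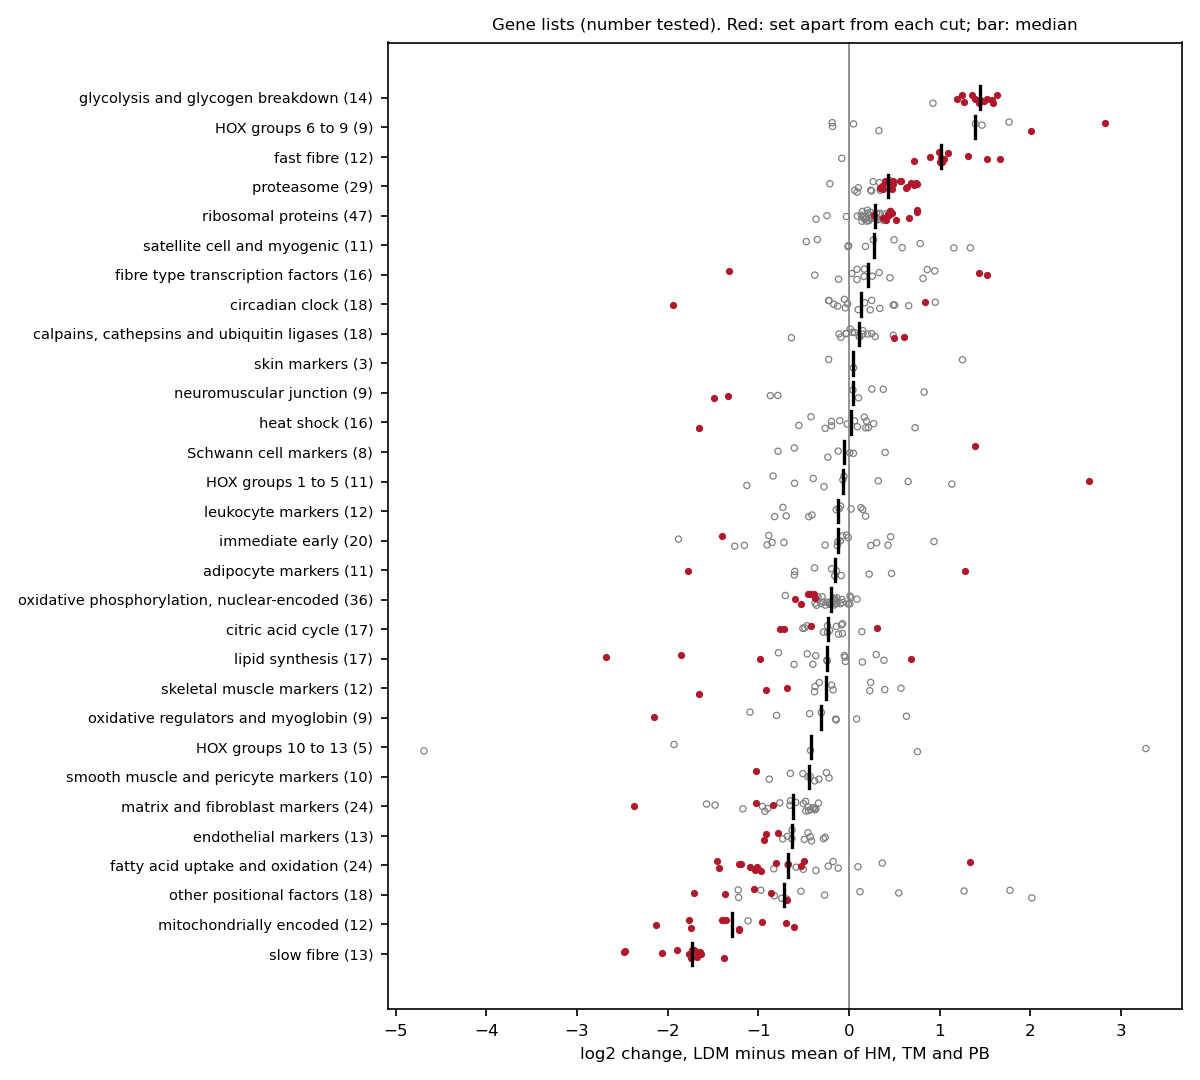
Log2 change of LDM against the mean of HM, TM and PB for the tested members of 30 gene lists, ordered by their median (bar). Red points are genes set apart from each cut and open circles are not; glycolysis and fast fibre genes lie to the right and slow fibre and mitochondrially encoded genes to the left.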

How the data were processed

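The authors deposited 1 table of raw read counts and FPKM values for 21280 genes in 40 libraries, per the file headers. Per the submitters' processing notes cutadapt 1.15, HISAT2 2.0.5, HTSeq 0.9.1 and the Sscrofa11.1 genome were used. The deposited FPKM values equalled the counts scaled by library and gene in 100% of cases, within a relative tolerance of 0.001, and were not tested. The strand setting of the counting was not given in the sources used here. Gene symbols came from the table for 14883 genes and from a RefSeq reference for 1279, and 5117 genes have none. A single gene model spans MYH4, MYH1 and MYH2.

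Counts were filtered by expression and scaled by TMM (factors 0.7292 to 1.355), and the 4 cuts were fitted together in edgeR 4.0.16 (R 4.3.3) with the quasi-likelihood test and Benjamini-Hochberg adjustment over 11713 genes at a threshold of 0.05. Figures were drawn in Python 3.11.15 with matplotlib 3.10.9. The fit was tested on simulated counts. Alternatives were limma 3.58.1 (voom with quality weights), DESeq2 1.42.0, other scalings and filters, a block for the library number, other ways of pooling the cuts, and leaving out libraries. Counts of genes without overlap under other scalings or without libraries were chosen after the data were seen. The named genes were the 12 highest and 12 lowest set-apart genes at 1 CPM or more, genes without overlap, up to 3 set-apart members of each list, the 5 most abundant genes and a few fixed genes. A few named genes were left out of the text. The members and lists were chosen with earlier results of these data known.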

Additional observations from a re-analysis of the deposited data

Results flagged for a closer look

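Of 392 gene-and-cut groups tested (98 genes), 27 held a library whose gap to the nearest of the others was over Dixon's limit for 10 samples; chance gives about 1 in 20. TM7 stood below the rest of TM at 1048 CPM for MYL2 (the others 3777 to 16030), 707.7 for TPM3, 133 for MYOZ2, 3013 for MYBPC1, 31720 for ACTA1, 9.224 for ERG and 0.5888 for RFLNA. PB8 stood below the rest of PB at 80.25 CPM for UQCRC2, 7.595 for GPAM, 5.119 for AQP7 and 50.28 for RGS5. HM9 stood below the rest of HM at 25.03 CPM for CPT2 and 2.869 for RAB30, and above it at 256.5 for CRY2.

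PB10 stood above the rest of PB at 10410 CPM for TPM1 and 15.74 for NMNAT2. HM8 stood above the rest of HM at 11.24 CPM for NMNAT2 and 52240 for CKM. In LDM, LDM4 had NRSN1 at 0 CPM and LDM10 had NPR3 at 0, with LDM3 high for BGN at 50.24 and LDM7 low for FN1 at 51.23. The other 5 were HOXC8 in PB9 at 0.5118 CPM, PSMD2 in PB4 at 301.7, CAPN3 in HM5 at 259, FLNC in HM6 at 10740 and PPARGC1A in PB5 at 518.5. What sets these libraries apart was not tested.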

How the results depend on the processing

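No named gene that passed changed direction under any alternative. The balance of calls against the mean did turn: 51.335% of them were higher, but 46.36% with upper-quartile scaling and up to 52.088% under the others, while set-apart genes were 55.453 to 65.649% higher. Of the counts that answer the comparison, 3 moved by over 1.5 times. Without a filter on low counts, 489 genes were higher by a log2 change of at least 1, against 256 with it. Without HM6, HM9, TM3 and TM7, 37 genes lay wholly above and 20 wholly below all other libraries, against 11 and 1. Across the other alternatives the genes that differed from the mean numbered 4196 to 5119, and those set apart 1361 to 1887.

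Leaving out each library in turn gave 4030 to 4812 genes that differed from the mean, 1981 to 2454 higher and 1894 to 2454 lower. Those of at least 1 in log2 change were 223 to 275 higher and 494 to 664 lower, and the percentage higher was 47.122 to 53.265. Set-apart genes were 1312 to 1688, with 790 to 1079 higher, 478 to 660 lower and 57.631 to 64.452% higher. Genes without overlap were 10 to 25 above and 1 to 3 below. Over the 159 named genes, a call against the mean was lost in 5 instances under an alternative (MSTN and HOXC10). Without a library it was lost in 10 (MSTN, ACTA1 and SLC7A2) and gained in 1 (CKM). These counts leave out the calls against single cuts, which were lost more often. ACTC1 lost its call against TM without any 1 of 23 libraries. PHKB and SLC7A1 lost theirs against PB without any 1 of 20 libraries each, and AMPD1 without any 1 of 14.

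The library number as a replicate block gave 5119 genes that differed from the mean, 2604 of them higher, and 1179 set apart higher and 708 lower, of which 973 and 552 were set apart without it. Same-numbered libraries correlated at -0.1021 to 0.5098, 26 of 30 pairs over 0.1, with a median of 0.2552 against -0.02525 for other numbers, and LDM libraries were best matched to their own number in 18 of 30. Most same-numbered pairs were thus more alike than other pairs, a sign of a pairing in the data. Not every pair passed 0.1 and the labels state no pairing, so the block stayed an alternative. The p-values of the main fit take no account of a pairing. The 30 other libraries as 1 group give no count of set-apart genes, and pairs fitted alone give no comparison with the mean. Low counts limit SBK2, COLQ and similar genes near 0 in LDM.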

Other observations

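The isoforms and groups in these paragraphs were chosen after their values were seen. Hexokinase HK2 changed by -2.59 ± 0.65 from medians of 24.7 CPM in LDM, against 164 in HM, 98.9 in TM and 65.6 in PB (its call against PB was lost without PB8), liver-type phosphofructokinase PFKL by -1.52 ± 0.25 and the fructose carrier SLC2A5 by -2.19 ± 0.40, whereas the glucose carrier SLC2A4, at -0.10 ± 0.16, did not pass. SLC16A3, which exports lactate, stood at 29.9, 67.7 and 128 CPM in LDM, against 7.13, 21.5 and 61.4 in HM, 9.17, 24.0 and 60.2 in TM and 6.08, 17.2 and 61.4 in PB, a log2 change of 1.58 ± 0.29. Of the pyruvate dehydrogenase kinases PDK3 was higher by 1.35 ± 0.20 and PDK1 and PDK2 lower, at -0.93 ± 0.15 and -0.69 ± 0.13, the last losing its call against PB without PB4 or PB5. PRKAG3, the muscle subunit of the AMP-activated kinase known for its effect on pork glycogen, stood at 82.4, 121 and 176 CPM in LDM, against 9.72, 33.6 and 152 in HM, 13.1, 39.1 and 71.5 in TM and 20.5, 43.6 and 131 in PB, a change of 1.44 ± 0.28, while PRKAG2, at -0.21 ± 0.30, did not pass.

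CARNS1, which joins histidine and beta-alanine into the muscle buffer carnosine, stood at 210, 284 and 807 CPM in LDM, against 19.9, 59.5 and 152 in HM, 19.2, 52.9 and 268 in TM and 21.2, 81.5 and 276 in PB, a log2 change of 2.23 ± 0.31 (adjusted p = 8.97e-07). GADL1, which can make beta-alanine, changed by 1.79 ± 0.31 but overlaps TGFBR2. Of the purine enzymes the adenylate kinase AK1 changed by 1.46 ± 0.23 and GMPR by 1.22 ± 0.16. SLC3A2, the heavy chain that SLC7A5 and SLC7A8 need, was higher by 1.06 ± 0.15 from medians of 208 CPM in LDM, against 87.6 in HM, 108 in TM and 97.2 in PB. Carriers of amino acids did not all rise: SLC7A1 and SLC38A2 were set apart lower, at -1.12 and -0.77. Both lost the call against PB without single libraries (adjusted p up to 0.1783 and 0.1212). The retinoid receptor RXRG stood at 57.6, 81.9 and 109 CPM in LDM, against 3.42, 18.2 and 39.0 in HM, 13.5, 20.4 and 49.1 in TM and 12.9, 20.8 and 59.0 in PB, a change of 1.90 ± 0.24, and RXRA was higher by 0.76 ± 0.11, while ESRRB, of the family of ESRRG, was lower at -1.91 ± 0.29. Sarcolipin SLN, a brake of the calcium pump, changed by 1.11 ± 0.18, MYOZ3, the fast relative of MYOZ2, by 1.07 ± 0.19 and the slow M-band protein MYOM3 by -1.51 ± 0.31.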
